A study of Mus musculus with 4 samples.

Results

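Endothelial cells line blood vessels, and the genes described here are widely used to recognize them. The members are Flt1, Kdr, Tek, Tie1, Cdh5, Pecam1, Cldn5 and Emcn, chosen by their gene symbols with earlier results of these data known. Each of these 8 genes was found on a single row among the 55487 genes counted. They were measured in mouse embryonic fibroblasts (MEFs), primary cells grown out of whole embryo tissue, which can carry over other embryonic cell types. The question was whether MEF cultures held transcripts of these genes and whether these transcripts differed after treatment with pigment epithelium-derived factor (PEDF). Wild-type MEFs at passage 2 by the sample labels, which the study's text counts as passage 3, were grown in serum-containing medium and were cultured for 24 h either without PEDF or with PEDF at 100 ng/mL, a protein that had been purified from mammalian cells. The study took its MEFs from mid-gestation C57BL/6J embryos. The 2 control and 2 PEDF libraries were made in 2 experiments, with a control and a PEDF library in each. Different embryos were used for the experiments, so the libraries of 1 experiment share a cell preparation.

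PEDF, encoded by Serpinf1, is a secreted protein of the serpin family that is best known as an inhibitor of blood vessel growth. In cultures of endothelial cells it restrains migration and can induce death of activated cells, whereas fibroblasts are not its classical target. Endothelial cells sense vascular endothelial growth factors (VEGFs) through receptor tyrosine kinases on their surface, of which KDR, or VEGF receptor 2, carries most of the growth signal. FLT1, or VEGF receptor 1, binds VEGF-A tightly but signals weakly, and a soluble form of it captures the ligand outside the cell. TEK (TIE2) is the receptor of the angiopoietins, and TIE1 is its co-receptor. The remaining members encode proteins of the endothelial surface and of the contacts between endothelial cells. Factors of the ETS family, which bind DNA around a GGAA core, take part in the expression of many endothelial genes.

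The gene counts, which were not normalized, summed to 14722848 to 18144640 per library, and edgeR's TMM scaling factors lay between 0.983 and 1.01. Levels within a gene are given as CPM, the counts in 1000000 counts of the scaled library. Levels between genes are given as TPM, a measure per length of transcript that the authors deposited beside the counts. Fibroblast markers dominated the libraries, with a mean level of 8653 TPM for Col1a1 and 2067 TPM for Vim. The 12 fibroblast markers summed to between 42548 and 54556 CPM in a library. The 8 endothelial members together held 4855 counts, or 0.00735% of all counts, and Flt1 supplied 77.8% of them.

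The promoters of the members were searched for a motif. The sequences were those of RefSeq on build GRCm38.p6, in which Flt1, Kdr, Tek, Tie1, Emcn and Cldn5 were found. The letters AGGAAG, a core with flanking bases that many ETS factors favor, were searched on both strands of the 250 bases before the start that RefSeq gives for each gene. The variant with C in place of the leading A, CGGAAG, was searched in the same way. Matches were found for Flt1, Tie1 and Emcn, or 3 of 6 members, and 39.2% of all 32851 promoters of the same length held at least 1 match. The windows of 30 bases around the matches are shown because they include the member with the highest level and a member with no counts at all, and capitals mark the matching letters. Flt1 and Tie1 are read on the minus strand, at chr5:147726123-147726152, chr5:147726047-147726076, chr4:118490064-118490093 and chr4:118490051-118490080 in this order, and Emcn on the plus strand at chr3:137340892-137340921 and chr3:137340973-137341002. Distances were counted from the RefSeq start, which is 147726011 for Flt1, 118489849 for Tie1 and 137341078 for Emcn. In the annotation of the counts Flt1 begins at the same base, whereas Tie1 begins at 118490061, so that its matches begin 20 and 7 bases before that start, and Emcn begins at 137341067, with its matches 163 and 82 bases before it.
Flt1, match beginning 129 bases before the RefSeq start: cgcccctccgggAGGAAGaagagggtaggt
Flt1, match beginning 53 bases before the RefSeq start: aggtgccggggtAGGAAGtgggctggggaa
Tie1, match beginning 232 bases before the RefSeq start: cttctcaataggCGGAAGccactggcttcc
Tie1, match beginning 219 bases before the RefSeq start, on the opposite strand: ggaagccactggCTTCCTccctttcctgtc
Emcn, match beginning 174 bases before the RefSeq start, on the opposite strand: caagaagggtctCTTCCTgttcaaatccca
Emcn, match beginning 93 bases before the RefSeq start: agtggctgccaaAGGAAGagagaggaaaaa
A match is a string of letters and not a shown binding site. With 6 members searched, 3 with a match is not set apart from the share of promoters in general, and a match accompanied both the highest level and a level of 0.

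The members covered a wide range of levels. In order of their mean TPM over the 4 libraries, Flt1 stood at 11.98, with a range of 9.73 to 13.6, and Kdr at 2.82, with a range of 2.54 to 2.97. Tek followed at 2.33, with a range of 2.09 to 2.67. Emcn stood at 0.936 (0.776 to 1.31), Cdh5 at 0.559 (0.409 to 0.671) and Pecam1 at 0.379 (0.363 to 0.417), and no count fell on Tie1 or Cldn5. The ranges of Kdr and Tek overlapped, as did those of Cdh5 and Pecam1, although in each of the 4 libraries Kdr lay above Tek and Cdh5 above Pecam1, and the other neighbors with counts had ranges apart. The Flt1 level was 4.25-fold that of Kdr and 31.6-fold that of Pecam1. Among the 21936 protein-coding genes, the mean TPM of Flt1 was above that of 65.3% of genes and that of Pecam1 above that of 36.6%, while 22.7% of the protein-coding genes had no count in any library.

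**Figure D1:**
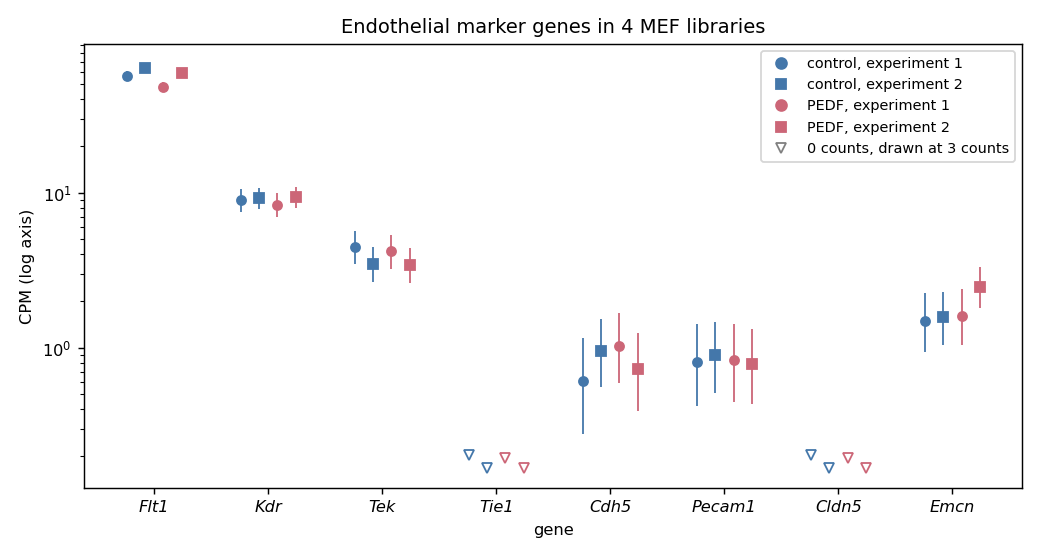
Level of each member in each library in CPM on a log axis, with blue for control, red for PEDF, circles for experiment 1, squares for experiment 2 and bars for 95% Poisson intervals, which cover counting error only. Flt1 lies between 47.9 and 63.6 CPM, the 5 other members with counts lie below 10 CPM, and the open triangles for Tie1 and Cldn5 stand for 0 counts drawn at the level of 3 counts.

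Among the receptors of VEGF, Flt1 (ENSMUSG00000029648) is transcribed from the minus strand of chromosome 5, between 147561604 and 147726011 in GRCm38, with 33 exonic blocks that sum to 13504 bp. In experiments 1 and 2 its level was 56.9 and 63.6 CPM without PEDF and 47.9 and 59.4 CPM with PEDF. The PEDF library lay below the control library in each experiment, and the ranges of the groups overlapped because the experiments also differed. The means were 60.3 ± 4.74 CPM in control MEFs and 53.7 ± 8.13 CPM in PEDF-treated MEFs (SD, n = 2 each). In edgeR's quasi-likelihood test over the 19384 genes with at least 10 counts, the log2 fold change of Flt1 was -0.17 (SE 0.101, 95% interval -0.383 to 0.050, adjusted p = 0.763). Flt1 has 6 annotated transcripts in GENCODE M21, and counts per gene cannot separate the soluble form from the membrane receptor.

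Kdr (ENSMUSG00000062960), also on the minus strand of this chromosome (75932827 to 75978458), has 29 exonic blocks that sum to 9030 bp. Its level was 8.94 and 9.25 CPM in the control libraries and 8.36 and 9.31 CPM in the PEDF libraries, and the groups overlapped. The means of 9.09 ± 0.216 and 8.84 ± 0.674 CPM (SD, n = 2 each) differed by less than the spread between the PEDF libraries. With PEDF, Kdr had a log2 fold change of -0.040 (SE 0.165, 95% interval -0.391 to 0.311, adjusted p = 0.974 in edgeR).

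Of the angiopoietin receptors, Tek (ENSMUSG00000006386) was detected and its partner Tie1 was not. Tek occupies chromosome 4 between 94739289 and 94874976 on the plus strand, with 23 exonic blocks that sum to 4712 bp. Its level was 4.47 and 3.47 CPM in the control libraries and 4.18 and 3.42 CPM in the PEDF libraries. Within each experiment the libraries with and without PEDF were close to each other, and the libraries of experiment 1 were the higher ones. With PEDF, its log2 fold change was -0.060 (SE 0.254, 95% interval -0.600 to 0.479, adjusted p = 0.974 in edgeR). Tie1 (ENSMUSG00000033191), at 118471191 to 118490061 on the minus strand of chromosome 4, has a similar exonic length of 4917 bp and no count in any library. A count of 0 allows up to 3 counts, which is 0.168 to 0.203 CPM in a library or 0.0455 CPM over all libraries together, so a low level of Tie1 is not excluded at this depth.

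Cdh5, Pecam1 and Cldn5 encode proteins of endothelial cell contacts, namely VE-cadherin, the adhesion molecule CD31 and the tight junction protein claudin-5. Cdh5 (ENSMUSG00000031871) occupies chromosome 8 between 104101625 and 104144511 on the plus strand, and in experiments 1 and 2 it had 9 and 17 counts without PEDF and 16 and 13 counts with PEDF. The antisense gene Gm29682 overlaps its locus without sharing an exonic base and had 0 counts in every library. Pecam1 (ENSMUSG00000020717), at 106654217 to 106750628 on the minus strand of chromosome 11, had 12 and 16 counts in the control libraries and 13 and 14 counts in the PEDF libraries. These widely used markers of endothelial cells were thus seen with fewer than 20 counts in each library, and their groups overlapped. The log2 fold change was 0.15 for Cdh5 (SE 0.542, 95% interval -1.004 to 1.30) and -0.080 for Pecam1 (SE 0.523, 95% interval -1.19 to 1.03), with adjusted p-values of 0.969 and 0.981 in edgeR. At this depth only a change larger than these intervals would have been visible. Cldn5 (ENSMUSG00000041378), a gene of 1 exon and 1416 bp at 18776847 to 18778262 on the plus strand of chromosome 16, had no count in any library, with the same limits as for Tie1.

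Emcn (ENSMUSG00000054690) encodes endomucin, a sialoglycoprotein of capillary and venous endothelium, and is found on the plus strand of chromosome 3, between 137341067 and 137432185. Its level was 1.49 and 1.57 CPM in the control libraries and 1.61 and 2.47 CPM in the PEDF libraries, from 22 to 44 counts. Emcn was the sole member whose groups did not overlap, and such a separation in either direction was found for 37.3% of all tested genes. The higher PEDF mean, 2.04 ± 0.609 against 1.53 ± 0.0558 CPM (SD, n = 2 each), rested on the PEDF library of experiment 2. Emcn had a log2 fold change of 0.42 (SE 0.369, 95% interval -0.364 to 1.20, adjusted p = 0.840 in edgeR), and it lay between 0.070 and 0.69 when each library was left out in turn.

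Taking the members as a list, 0 of the 6 members tested had an adjusted p under 0.05 for PEDF against control in edgeR, where 0.00516% of all tested genes did. At an unadjusted p under 0.05, which 6.88% of all genes reached, edgeR again gave 0 members, and so did DESeq2 (1.46% of all genes). DESeq2's independent filtering, which leaves genes of low mean count without an adjusted p, left all 6 members without one. With that filtering switched off, DESeq2 gave 0 members an adjusted p under 0.05, where 0.0115% of all genes had one. Fold changes were above 0 on the log2 scale for 2 members and below 0 for 4, with a median of -0.050 beside a median of 0.00117 over all genes. The direction was not shared by the members, and no member passed the test. In bulk RNA, fewer cells of a type and less RNA per cell cannot be told apart. These values therefore describe the summed transcripts of the members in a culture and not the number of endothelial cells. Which cells supplied these transcripts, most of them from Flt1, was not tested.

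Since the labels tie each PEDF library to a control library of the same cell preparation, the ratio of PEDF to control CPM was also read within each experiment, with an exact binomial 95% interval that covers counting error only and compares libraries, not conditions. For Flt1 the ratio was 0.842 (0.762 to 0.930) in experiment 1 and 0.934 (0.858 to 1.02) in experiment 2. Flt1 was thus lower with PEDF in each experiment, and the interval of experiment 1 lay below 1. For Emcn the ratio was 1.08 (0.584 to 2.01) and 1.57 (0.958 to 2.62), and for Tek 0.935 (0.654 to 1.34) and 0.985 (0.680 to 1.43). For Kdr, Cdh5 and Pecam1 the ratio lay above 1 in 1 experiment and below 1 in the other, and all of their intervals included 1. The summed counts of the members gave 0.873 (0.800 to 0.952) and 0.955 (0.886 to 1.03), and without Flt1 they gave 0.981 (0.818 to 1.18) and 1.04 (0.878 to 1.22). The lower sum was therefore that of Flt1, and the remaining members together did not depart from 1 beyond counting error in either experiment.

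**Figure D2:**
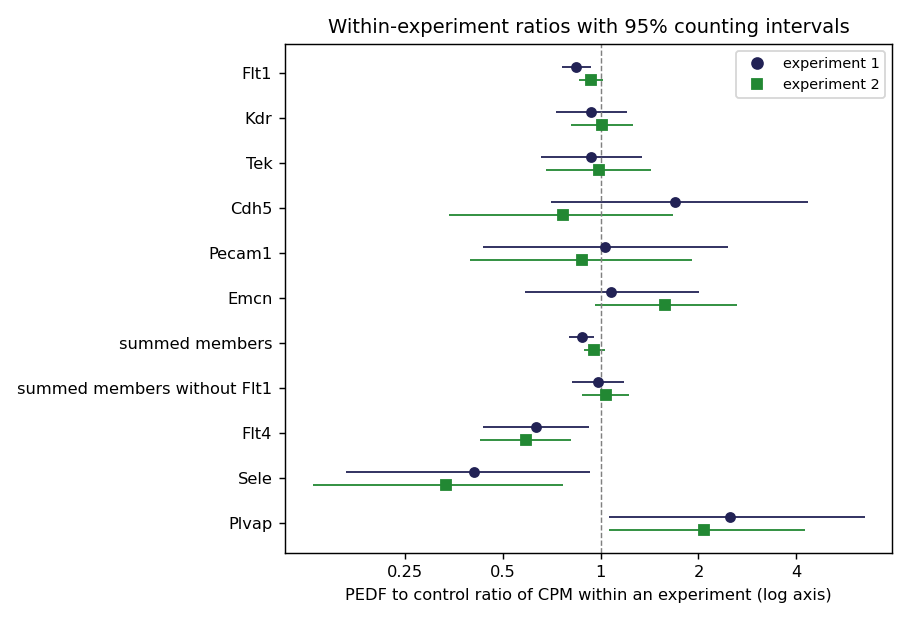
Ratio of PEDF to control CPM within experiment 1 (circles) and experiment 2 (squares) on a log axis, with exact binomial 95% intervals for counting error and a dashed line at 1. Flt1 lies at 0.842 and 0.934, Cdh5 at 1.69 and 0.766, and 3 other endothelial genes, Flt4, Sele and Plvap, lie on 1 side of 1 in each experiment.

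When a block for the experiment was added to the edgeR fit, so that differences between preparations no longer counted as spread, the log2 fold change of Flt1 was -0.17 (SE 0.0688, 95% interval -0.303 to -0.0330, unadjusted p = 0.0147, adjusted p = 0.173). Flt1 was the 1 member with an unadjusted p under 0.05 in that fit, where 14.6% of all genes had one, and 0 members had an adjusted p under 0.05, where 3.75% of all genes did. The same block in DESeq2 gave 0 members at an unadjusted p under 0.05 (1.66% of all genes) and again no adjusted p for any member, and with independent filtering off it gave 0 members at an adjusted p under 0.05 (0.222% of all genes). Gene length moved with this comparison. In the genes whose mean log2 CPM exceeded 3, the 2124 with more than 8000 bp of exonic sequence, the class of Flt1 and Kdr, had a median log2 difference of PEDF from control of -0.066 in experiment 1 and -0.0863 in experiment 2, whereas the 1008 genes above 1000 and up to 2000 bp had medians of 0.0805 and 0.119. When trends over length and GC content were removed from the blocked fit, the log2 fold change of Flt1 was -0.061 (SE 0.0669, adjusted p = 0.819), and that of Kdr was 0.025. In that fit 0 members had an adjusted p under 0.05 (2.18% of all genes) and 0 an unadjusted p under 0.05 (11.6%). The smaller Flt1 value after this step is a measurement, and the part of the length trend in the Flt1 difference was not tested further.

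The experiments themselves were compared with the same test, because each had its own embryos and could differ in the cells carried over. Each experiment was a single preparation, whose control and PEDF libraries served as its replicates. The SEs and p-values of this comparison therefore do not measure the spread between preparations, and a call in it holds for this pair of preparations only. Experiment 2 against experiment 1 gave a log2 fold change of 0.23 for Flt1 (SE 0.0932, 95% interval 0.0351 to 0.429, adjusted p = 0.600 in edgeR). Flt1 was higher in both libraries of experiment 2 than in both of experiment 1, as was Kdr at 0.10 (SE 0.163), and Tek was lower in both at -0.33 (SE 0.232). The groups of these 3 of 6 members did not overlap, as for 37.5% of all genes. Emcn stood at 0.38 (SE 0.362), Cdh5 at 0.032 (SE 0.531) and Pecam1 at 0.028 (SE 0.513). Without a term for treatment, 0 members had an adjusted p under 0.05 in edgeR (0.0567% of all genes) and 1, Flt1, had an unadjusted p under 0.05 (7.67% of all genes), while DESeq2 gave 0 members at either limit (0.0344% and 1.8% of all genes). With treatment as a term, the Flt1 value was 0.23 (SE 0.0689, 95% interval 0.0989 to 0.369, adjusted p = 0.0218), so that 1 of 6 members was called where 4.49% of all genes were, and the same member had an unadjusted p under 0.05, as did 14.8% of all genes. With length and GC trends removed the value was 0.17 (SE 0.0670, adjusted p = 0.173) and the call was lost, in a fit that called 3.42% of all genes and gave 13.2% an unadjusted p under 0.05. Cdh5 had 9 to 17 and Pecam1 12 to 16 counts in a library, and their differences between preparations were far smaller than their SE. At this depth the values do not tell whether the preparations differed in these genes.

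**Figure D3:**
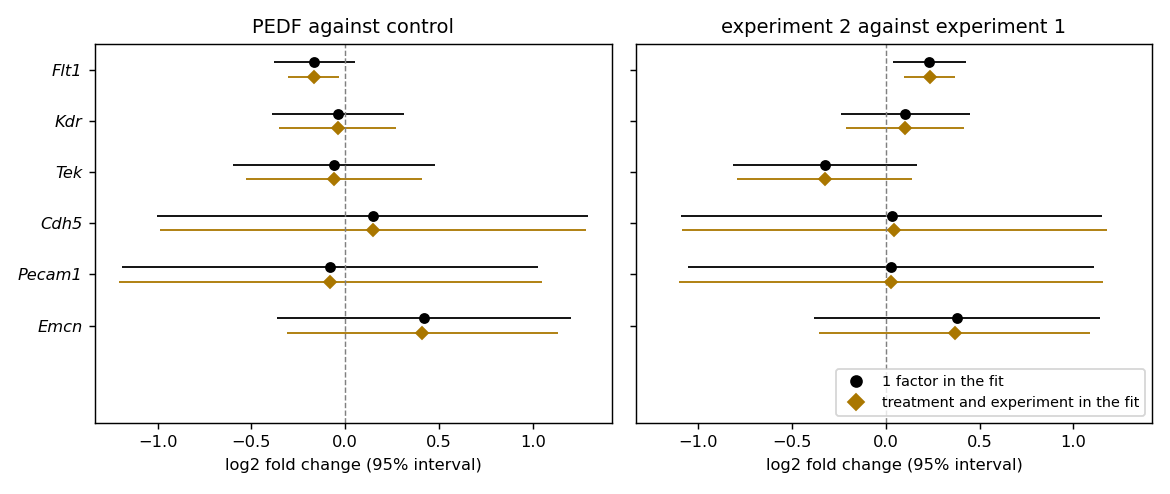
Log2 fold change of the 6 tested members with 95% intervals, for PEDF against control on the left and experiment 2 against experiment 1 on the right, from edgeR with 1 factor (black circles) and with treatment and experiment together (ochre diamonds). For PEDF the interval of Flt1 includes 0 with 1 factor and lies below 0 with both factors, and for the experiments both Flt1 intervals lie above 0, while every interval of Kdr, Tek, Cdh5, Pecam1 and Emcn includes 0.

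Other genes of endothelial cells were read from a list of 20, of which 16 had at least 10 counts in total. Their summed level was almost even, from 122 to 126 CPM over the libraries, and in edgeR 0 of the 16 had an adjusted p under 0.05 for PEDF, also with the block. In DESeq2 without independent filtering, 0 genes of this list were called and 0 had an unadjusted p under 0.05. The highest levels were those of Eng, a co-receptor of TGF-beta, at 45.1 TPM, Ecscr at 13.5 TPM, Cd34, which is also found on stem and stromal cells, at 8.84 TPM, and Clec14a, a lectin-like endothelial surface protein, at 6.96 TPM. Egfl7, which encodes a secreted vessel protein, followed at 3.60 TPM, Ramp2, a partner of the adrenomedullin receptor, at 1.98 TPM, Cd93 at 1.88 TPM and Plvap at 1.53 TPM. The lowest of the 16 were Nos3, the endothelial nitric oxide synthase, at 0.176 TPM and Vwf, which encodes the von Willebrand factor of endothelial granules, at 0.109 TPM. Gpihbp1, which anchors lipoprotein lipase on capillaries, had 0 counts in every library. The median log2 fold change of the 16 was 0.12, with 10 values above 0 and 6 below.

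In this list 2 of 16 genes had an unadjusted p under 0.05 in edgeR without the block, beside 6.88% of all genes. Sele, the adhesion receptor E-selectin, had 21 and 24 counts in the control libraries and 9 and 8 counts in the PEDF libraries, with a log2 fold change of -1.42 (SE 0.518, adjusted p = 0.695). Plvap, which forms the diaphragms of endothelial pores, had 8 and 14 counts in the control libraries and 21 and 29 counts in the PEDF libraries, with a log2 fold change of 1.15 (SE 0.479, adjusted p = 0.695). The groups did not overlap for either gene, as for 37.3% of all genes, and the values pointed in opposite directions. With the block these 2 genes again had an unadjusted p under 0.05, as did 14.6% of all genes, and their adjusted p-values in edgeR were 0.151 and 0.230.

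Of 9 transcription factors of endothelial cells, 6 had at least 10 counts and 0 of these had an adjusted p under 0.05 for PEDF in any edgeR fit shown here, while 0 had an unadjusted p under 0.05 without the block, in edgeR and in DESeq2 alike. The ETS factors Erg and Fli1 and the zinc finger factor Gata2 were the highest, at 12.5, 8.33 and 8.02 TPM. Erg thus stood within the range of the Flt1 level, and Fli1 and Gata2 stood between Flt1 and Kdr. With PEDF, the log2 fold change of the 6 genes was above 0 for 2, Erg at 0.10 (SE 0.130) and Fli1 at 0.061 (SE 0.156), and below 0 for 4, from -0.048 for Lmo2 (SE 0.446) to -0.77 for Tal1 (SE 0.964), with a median of -0.054. Etv2, which starts the endothelial program in the embryo, had 0 counts in every library. The summed level of the 9 genes, 43.0 to 44.6 CPM, varied little between the libraries.

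Among 4 genes of lymphatic endothelium, Flt4 (VEGF receptor 3, the receptor of VEGF-C and VEGF-D) lay lower with PEDF in each experiment. It had 75 and 109 counts, or 5.08 and 6.11 CPM, in the control libraries and 50 and 64 counts, or 3.22 and 3.59 CPM, in the PEDF libraries. The groups did not overlap, as for 37.3% of all genes, and the ratio of PEDF to control was 0.633 (0.433 to 0.917) in experiment 1 and 0.588 (0.425 to 0.808) in experiment 2. Flt4 had a log2 fold change of -0.72 (SE 0.233, unadjusted p = 0.00728, adjusted p = 0.695) in edgeR without the block and -0.72 (SE 0.224, 95% interval -1.16 to -0.278, adjusted p = 0.0401) with it, in a fit that called 3.75% of all genes, and with the length and GC trends removed the call was lost (-0.64, adjusted p = 0.130). DESeq2 gave Flt4 an unadjusted p of 0.0509 without the block. Over all settings its adjusted p ranged from 0.0401 to 0.9999. At 8232 bp of exonic sequence Flt4 belongs to the same length class as Flt1 and Kdr. Lyve1, a hyaluronan receptor of lymphatic vessels and some macrophages, had 0 counts, and the lymphatic regulator Prox1 stood at 0.783 TPM. Pdpn, found on many stromal cells too, stood at 86.7 TPM. Both of these genes lay higher with PEDF, opposite to Flt4, and their groups did not overlap either. Prox1 had 1.90 and 2.30 CPM in the control libraries and 2.44 and 2.64 CPM in the PEDF libraries. Pdpn had 54.3 and 53.6 CPM in the control libraries and 56.4 and 58.3 CPM in the PEDF libraries.

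The ligands and partners of the VEGF and Tie receptors covered a range of levels that overlapped that of the receptors. Vegfa stood at 65.1 TPM, Vegfb at 44.6, Vegfd at 29.6, Vegfc at 14.4, Angpt1 at 11.7, Angpt2 at 11.0, Pgf at 5.00 and Angpt4 at 2.67 TPM. The co-receptors Nrp1 and Nrp2, which other cells also carry, stood at 48.5 and 78.3 TPM, and the receptor phosphatase Ptprb, which acts on TEK, at 1.05 TPM. Over the libraries, Vegfa, Vegfb, Vegfd and both neuropilins lay above the range of Flt1, and Pgf, Angpt4 and Ptprb lay below it. The ranges of Vegfc, Angpt1 and Angpt2 overlapped that of Flt1, and the range of Angpt4 overlapped that of Kdr. Of the 11 genes, 0 had an adjusted p under 0.05 for PEDF in edgeR with or without the block, and without it 0 had an unadjusted p under 0.05 in edgeR or in DESeq2. With the block 2 of the 11, Vegfa and Nrp1, had an unadjusted p under 0.05 in edgeR, as did 14.6% of all genes. Vegfa had a log2 fold change of -0.15 with PEDF (SE 0.0920, adjusted p = 0.766 in edgeR). The Vegfa value with PEDF lay between -0.28 and -0.032 when each library was left out in turn. For experiment 2 against experiment 1 its value was 0.22 (SE 0.0818, adjusted p = 0.568 in edgeR), it lay between 0.14 and 0.31 when each library was left out in turn, and it was not called there or in DESeq2 or limma. With treatment as a term edgeR called it (adjusted p = 0.00597), as it did 4.49% of all genes, and also with the length and GC trends removed (0.23, adjusted p = 0.00241), where 3.42% of all genes were called.

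**Figure D4:**
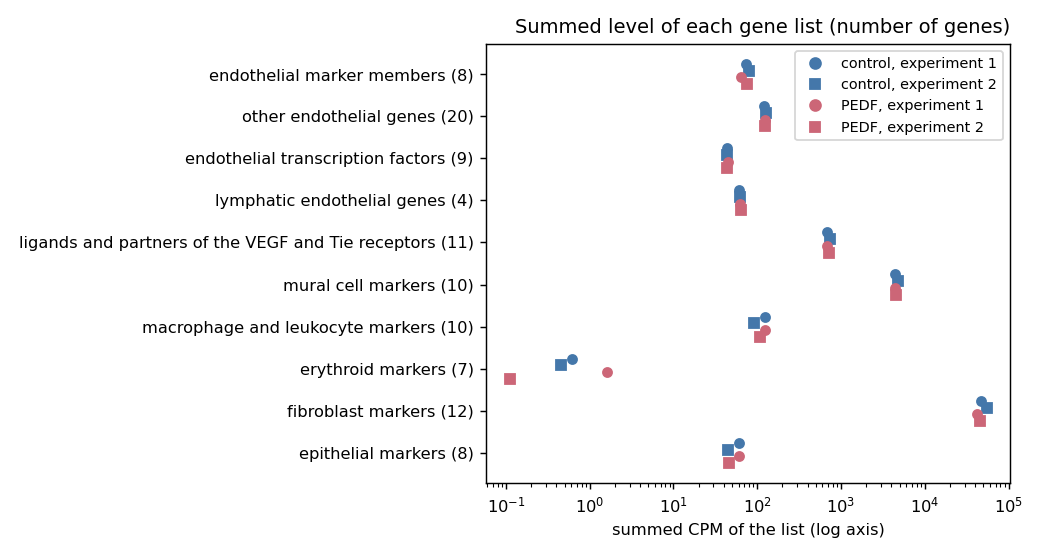
Summed CPM of each gene list in the 4 libraries on a log axis, with the number of genes of each list in parentheses, blue for control, red for PEDF, circles for experiment 1 and squares for experiment 2. The 8 endothelial members lie between 63.9 and 79.7 CPM, below the 10 mural cell markers at 4382 to 4729 CPM and the 12 fibroblast markers.

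Markers of other cell types that MEF cultures could hold were read in the same libraries. The 10 macrophage and leukocyte markers summed to 125 and 91.3 CPM in the control libraries of experiments 1 and 2 and to 125 and 107 CPM in the PEDF libraries, with C1qb at 42.7 TPM and Csf1r at 14.9 TPM. All 10 had at least 10 counts, all 10 had a log2 fold change below 0 for experiment 2 against experiment 1, and with treatment as a term C1qb and C1qc were called lower in edgeR, where 4.49% of all genes were called. In the same fit Krt8 and Cldn4 of the epithelial markers and Dcn, Lum and Twist1 of the fibroblast markers were called lower in experiment 2, and Col1a1, Fn1, Cspg4, Mcam, Notch3 and Pdgfrb were called higher. Of the 3 members whose groups did not overlap between the experiments, as for 37.5% of all genes, Flt1 and Kdr were higher in experiment 2 and Tek was lower. The 8 epithelial markers summed to 44.7 to 61.0 CPM and were led by Krt18, and the 7 erythroid markers summed to at most 1.61 CPM, with Alas2 as the highest in CPM, Hba-a1 as the highest in TPM and 3 of them at 0 counts. The 10 markers of mural cells, the contractile cells around vessels, were led by Acta2 at 3008 TPM, which fibroblasts in culture express as well. With the block, which called 3.75% of all genes, Des was called higher and Pdgfrb and Cspg4 lower with PEDF in edgeR, as were Dcn and Lum (higher) and Col1a1, Col1a2 and Fn1 (lower) of the 12 fibroblast markers. The call of Col1a2 was lost when the length and GC trends were removed. Without the block edgeR called 0 genes of these lists and DESeq2 called 1, Fn1, or 0 without independent filtering. The part of these other cell types in the values of the members was not tested.

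The genes whose pattern over the libraries was most like that of the summed members were Foxm1, Zdhhc21, Lrig1, Kansl3 and 4930503L19Rik, with root mean square differences in centered log2 CPM of 0.00585 to 0.0107 among 14320 genes with at least 100 counts. With only 4 libraries, this likeness describes the order and spacing of 4 values, of which the PEDF library of experiment 1 was the lowest and the control library of experiment 2 the highest.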

How the data were processed

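The authors isolated polyadenylated RNA, made directional libraries, sequenced them from both ends, trimmed the reads with Trimmomatic 0.38, aligned them with HISAT2 2.1.0 and counted reads per gene with featureCounts 1.6.3. The genome build per the labels was mm10, and the annotation and strand setting of the counting are not given in the sources used here. The authors deposited raw gene counts and TPM values, whose conversion their text does not describe. Counts were tested with edgeR 4.0.16 in R 4.3.3 (TMM factors, quasi-likelihood test with robust dispersion, no covariate) in genes with at least 10 counts in total, with Benjamini-Hochberg adjustment over these genes and a threshold of 0.05. TPM values were used for levels between genes and, as log2(TPM + 1) or log2(TPM + 0.1), in limma 3.58.1. DESeq2 1.42.0 (the tool the authors used), RLE factors, no filter, filterByExpr, a block for the experiment and the omission of each library were alternatives. A blocked fit that removed trends over exonic length and GC content, as natural splines of 5 degrees of freedom, was chosen after seeing the data, as was DESeq2 without independent filtering. By the labels the experiments used different embryos, which pairs the libraries of an experiment, and the differences between experiments in control and PEDF libraries correlated over 10722 genes (r = 0.423, a value across genes and not across independent replicates). For PEDF without the block, with 2 libraries a group, p-values measure the spread between 2 preparations, with information on spread shared across genes. With the block they measure the spread that remains once the difference between preparations is taken out. Between the experiments they rest on the control and PEDF libraries of each preparation and not on replicate preparations. Intervals from counts cover counting error only, since PCR copies of a molecule can be read more than once.

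The members and gene lists were chosen with earlier results of these data known. Named were the 8 members, list genes called in a fit without or with the block, the gene with the highest CPM of each other list and the 5 genes most like the summed members. Any endothelial, transcription factor or ligand gene with at least 10 counts could be named, and those shown were selected with their values in view. Vim, Gm29682, Gpihbp1, Etv2, Lyve1, Prox1 and Hba-a1 fall outside this rule and were picked with their values in view. Methods were tested on simulated counts.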

Additional observations from a re-analysis of the deposited data

Results flagged for a closer look

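For 3 members the ratio of PEDF to control CPM lay on opposite sides of 1 in the experiments, with 1 pair of libraries in each. Cdh5 had a ratio of 1.69 in experiment 1 and of 0.766 in experiment 2, with 9 and 16 counts in the control and PEDF libraries of experiment 1 and 17 and 13 in those of experiment 2. Pecam1 had ratios of 1.03 and 0.876, and Kdr had ratios of 0.935 and 1.01. The difference between the experiments was not tested, and the counting interval of each of these ratios included 1.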

How the results depend on the processing

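For PEDF against control, 0 members had an adjusted p under 0.05 in every alternative that gave them one, leaving out each library in turn included (0 to 0). DESeq2 with its independent filtering gave the 6 members no adjusted p, with or without the block, so DESeq2 was also run without that filtering, an alternative chosen after seeing the data. With the experiment as a replicate block, which follows the pairing in the labels, the number over all genes rose from 1 to 726 in edgeR, where the number of members called stayed at 0. DESeq2 called 111 genes with the block and 58 with independent filtering off, and 0 of these 58 were members. An unadjusted p under 0.05 was reached by 1 member, Flt1, with the block in edgeR, without the control library of experiment 1 and without the PEDF library of experiment 2, settings in which 14.6%, 12.8% and 9.36% of all genes reached it. Over all genes edgeR called 106 with no filter and 422 with the block and length and GC trends removed, DESeq2 called 9 and, with independent filtering off, 3, filterByExpr and limma gave 0, and leaving out a library gave 8 to 332. For experiment 2 against experiment 1, the main count of 11 became 139 with no filter, 870 with treatment as a term, 662 with trends removed as well, and 0 in limma, and leaving out a library gave 2 to 466.

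Of the members, 1, Flt1, was called between the experiments with treatment as a term and 0 with the trends removed as well. Over the 9 other lists, which with the 8 members hold 99 genes, the number called for PEDF was 0 in the main fit. It rose to 9 with the block in edgeR, where 3.75% of all genes were called, and to 7 with the trends removed as well (2.18% of all genes). With DESeq2 it was 1, with no filter 2 and with the block in DESeq2 3. With the block and independent filtering off DESeq2 called 2 (0.222% of all genes). Between the experiments the number over these 9 lists rose from 0 to 4 with no filter. It was 14 with treatment as a term, where 4.49% of all genes were called, and again 14 with the trends removed (3.42% of all genes). The summed ratio of the members without Flt1 was 0.981 and 1.04 in experiments 1 and 2.

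For single members, 59 values for PEDF kept their side of the threshold and direction across the alternatives that kept all libraries and gave an adjusted p, and 1 turned, that of Kdr with the trends removed (0.025). Leaving out a library gave log2 fold changes with PEDF of -0.12 to 0.51 for Cdh5, -0.15 to -0.0056 for Pecam1, -0.12 to 0.034 for Kdr, -0.24 to 0.13 for Tek, 0.070 to 0.69 for Emcn, -0.33 to -0.022 for Flt1 and -0.28 to -0.032 for Vegfa. Between the experiments it gave 0.11 to 0.36 for Flt1, 0.054 to 0.15 for Kdr, -0.37 to -0.28 for Tek, 0.14 to 0.31 for Vegfa, 0.015 to 0.67 for Emcn, -0.069 to 0.12 for Pecam1, -0.29 to 0.46 for Cdh5, -0.20 to 0.59 for Flt4, -1.13 to 0.63 for Sele and -0.28 to 1.14 for Plvap. Where a group was left with 1 library, that library was assumed to vary like the others. The cause of these changes was not tested. Depth limits what can be said of Cdh5, Pecam1, Emcn, Sele and Plvap, each with fewer than 50 counts in a library, and for Tie1 and Cldn5 a level of up to 0.0455 CPM over all libraries could have gone undetected.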
